A study of Mus musculus with 4 samples.

Results

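The genes described here encode the subunits of the cytokines IL-12, IL-23 and IL-27, which are Il12b, Il23a, Il12a, Il27 and Ebi3. They were taken by name from the array annotation, keeping for each gene the brightest probe set, by its mean over all arrays, among those listed under that symbol alone. All 5 were found, on 6 probe sets in all (Ebi3 had a pair), and all 5 lay above the intensity filter, among 14652 genes tested of 22180 that could be named. Expression was measured on Affymetrix arrays in bone marrow-derived dendritic cells, which are antigen-presenting cells grown in culture from marrow precursors of C57BL/6 mice with no transgene or deletion named in the labels. Sulforaphane-treated cells (2 arrays) had been harvested on day 7, kept for 2 h in 0.3 µM sulforaphane dissolved in DMSO (the dose as the labels give it, an unusually low one, so its unit may be in error) and then given 100 ng/ml of E. coli lipopolysaccharide (LPS) for 1 h. DMSO-treated cells (2 arrays) had the same harvest, timing and LPS with the solvent alone, so every array comes from LPS-activated cells and no unstimulated level was analysed here. Sulforaphane, an isothiocyanate found in broccoli and related plants, is known as an activator of NRF2, a transcription factor of antioxidant defence. The labels do not say whether replicates came from separate mice or cultures, and the p-values therefore cover the variation among these samples alone, possibly technical.

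Cytokines of the IL-12 family are secreted as heterodimers of a helical chain and a chain that resembles a cytokine receptor. Il12b encodes p40, the receptor-like chain, which joins p35 (Il12a) to form IL-12 and p19 (Il23a) to form IL-23, while p28 (Il27) joins the receptor-like EBI3 (Ebi3) to form IL-27, and EBI3 with p35 has been described as IL-35. Dendritic cells make these cytokines after sensing microbes. IL-12 drives T cells towards interferon gamma production, IL-23 sustains T cells that make IL-17, and IL-27 both promotes and restrains T cell responses. The series title names IL-23 and IL-12 in dendritic cells as the study's subject, and the comparison asks how far each chain of these dimers differed after sulforaphane.

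The values are RMA values on a log2 scale. The array medians ran from 3.24 to 3.27. DMSO replicate 1 had a narrower spread than the others (interquartile range 3.41, against 3.61 to 3.62), and results are therefore also given without it. Of 9 measured dendritic cell markers all 9 lay above the filter. Their summed level, the log2 of the summed linear values, was 13.31 and 13.36 in sulforaphane cells and 13.15 and 13.28 in DMSO cells. The brightest markers weigh most in such a sum. Neutrophil (8 of 8), macrophage (7 of 7), mast cell (6 of 6) and plasmacytoid dendritic cell markers (4 of 4) also lay above the filter. So did 14652 of all 22180 genes, so passing the filter does not by itself show that a cell type was present. These cultures are known to be mixed. The summed neutrophil level was 12.95 and 12.78 in sulforaphane cells and 12.68 and 12.94 in DMSO cells. The macrophage level was 13.35 and 13.36 in sulforaphane cells and 13.30 and 13.47 in DMSO cells. The mast cell level was 10.79 and 10.89 in sulforaphane cells, below the 10.93 and 10.97 in DMSO cells. B cell markers (2 of 3) and T and NK cell markers (3 of 6) were near the filter, with no member at 0, since RMA gives no zeros. Among mast cell markers Fcer1a was as dim (3.61 to 3.71 over the 4 arrays). Among plasmacytoid dendritic cell markers so were Ly6d (2.92 to 3.63) and Siglech (3.26 to 3.94). In such mixed cultures fewer cells of a type and less RNA per cell cannot be told apart, and the part of cell makeup in the results below was not tested.

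Promoter windows of 300 bases, 250 before to 50 after the annotated start, were available from RefSeq (GRCm38.p6) for 3 of the 5 genes. They are shown because Il12b and Il12a encode the chains of IL-12, of which Il12b passed the test described below and Il12a did not, and Ebi3 is the partner chain of Il27. All 3 genes lie on the plus strand. The first line is the Il12b window at chr11:44399813-44400112, the next pair are Il12a windows at chr3:68690394-68690693 and chr3:68691174-68691473 (2 annotated starts), and the last is the Ebi3 window at chr17:55952373-55952672. Capitals mark matches on either strand to any motif searched.
Il12b: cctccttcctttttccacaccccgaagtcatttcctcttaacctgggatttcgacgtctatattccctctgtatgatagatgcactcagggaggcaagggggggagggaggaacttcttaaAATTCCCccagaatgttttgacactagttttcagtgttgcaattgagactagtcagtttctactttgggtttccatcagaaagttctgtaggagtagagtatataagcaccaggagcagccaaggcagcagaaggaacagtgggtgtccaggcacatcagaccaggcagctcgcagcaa
Il12a, upstream start: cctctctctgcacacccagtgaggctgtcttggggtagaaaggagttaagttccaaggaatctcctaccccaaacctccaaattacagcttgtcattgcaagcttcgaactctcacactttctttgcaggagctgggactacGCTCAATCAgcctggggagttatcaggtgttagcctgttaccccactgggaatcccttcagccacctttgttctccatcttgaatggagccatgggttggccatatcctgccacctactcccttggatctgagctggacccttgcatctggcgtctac
Il12a, downstream start: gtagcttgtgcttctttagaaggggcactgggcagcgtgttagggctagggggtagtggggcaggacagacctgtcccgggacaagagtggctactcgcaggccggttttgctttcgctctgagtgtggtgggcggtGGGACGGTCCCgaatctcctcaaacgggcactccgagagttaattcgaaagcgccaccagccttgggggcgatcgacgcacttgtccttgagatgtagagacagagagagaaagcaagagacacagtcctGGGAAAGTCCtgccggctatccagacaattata
Ebi3: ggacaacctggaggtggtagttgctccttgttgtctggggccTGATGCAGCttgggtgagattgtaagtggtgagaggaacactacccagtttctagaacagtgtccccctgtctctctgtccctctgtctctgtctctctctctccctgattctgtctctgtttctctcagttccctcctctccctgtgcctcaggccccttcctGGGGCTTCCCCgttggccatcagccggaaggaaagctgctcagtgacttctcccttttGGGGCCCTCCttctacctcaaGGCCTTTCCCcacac

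The motifs searched on both strands were an NF-kB site (GGG, any 5 bases, CC), the AP-1 site TGANTCA, the core of the antioxidant response element that NRF2 binds (TGA, any 4 bases, GC), an interferon response motif (GAAA, any 2 bases, GAAA) and the TATA box TATAAA. A shorter NF-kB half-site, GGGAATT, was added after the windows had been seen. The Il12b window held the half-site on the minus strand, 129 bases before the start, as 3.51% of all 32851 windows do, and none of the other motifs. The downstream Il12a window held 3 NF-kB matches, of which the pair 113 and 112 bases before the start overlap on opposite strands. The Ebi3 window held 4, of which those 44 and 43 bases before the start overlap. NF-kB matches were found in 50.8% of all windows. The antioxidant core, present in 41.3% of windows, matched once in the upstream Il12a window and once in that of Ebi3. AP-1, interferon response and TATA matches occur in 7.81%, 3.44% and 13.6% of windows, and none lay in these 4. The matches describe letters only, and no binding was measured.

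Il12b fell after sulforaphane. Its log2 level was 8.55 and 8.63 in the sulforaphane arrays, against 9.95 and 9.86 in the DMSO arrays. Both sulforaphane values thus lay below both DMSO values, with 1.23 between the nearest pair. The difference was -1.32 ± 0.11 (SE, n = 2 per group), a level 2.49-fold lower or 40.2% of that in DMSO cells (95% interval of the log2 difference -1.59 to -1.05), with an adjusted p of 0.0326 by limma over all genes tested. Each SE and interval here and below is limma's, with a variance drawn partly from all genes tested. It is not the spread of these replicates alone. By the same rule 19 of the 14652 genes were called, 0.130% of them, with 0.0683% called lower and 0.0614% called higher. Il12b was 12th from the lowest when genes were ordered by difference and the 9th by p. Replicates lay close together, 0.087 apart in sulforaphane and 0.089 apart in DMSO cells, and 30.5% of all genes had DMSO arrays closer together than that. With any 1 array left out the difference stayed between -1.36 and -1.27, but the call was lost each time (adjusted p from 0.0816 to 0.213). Il12b (Entrez 16160) lies on chromosome 11 from 44400063 to 44414677.

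Il23a, the chain that makes p40 into IL-23, was lower in both sulforaphane arrays without passing the threshold. It measured 6.28 and 6.35 after sulforaphane, against 7.66 and 7.32 after DMSO. The groups did not overlap, and the nearest pair of arrays was 0.97 apart. The log2 difference was -1.17 ± 0.14 (SE, n = 2 per group, 95% interval -1.52 to -0.82), a 2.26-fold lower level, with an adjusted p of 0.0565 by limma. DMSO replicate 1 was the higher of the DMSO pair by 0.34, a gap larger than that of 82.7% of all genes. Without it the difference was -1.01 (adjusted p = 0.131 by limma), and without DMSO replicate 2 it was -1.34. The adjusted p by limma passed the threshold in 4 of 14 alternatives. These were a second quantile normalization (0.0385), an intensity filter at the 60th percentile (0.0306) and an intensity trend in the variance (0.00754). The last was centring on the median of the genes tested (0.0194), which was chosen after seeing the data. In that order they called 106, 138, 249 and 143 of all genes, against 19 in the main test. Il23a (Entrez 83430) is a short gene of 1945 bp on chromosome 10, from 128296140 to 128298084.

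Il12a, the p35 chain of IL-12, was dim and also lower without passing the threshold. It measured 3.17 and 3.42 in sulforaphane arrays and 4.10 and 4.05 in DMSO arrays. No value of one group reached the other, and 0.63 separated the nearest arrays. The log2 difference was -0.78 ± 0.13 (SE, n = 2 per group, 95% interval -1.09 to -0.47), a 1.72-fold lower level, with an adjusted p of 0.0876 by limma. In the sulforaphane arrays 48.4% and 53.4% of all probe sets were dimmer than Il12a, against 62.5% and 61.3% in the DMSO arrays, so its sulforaphane level stood at the middle of the probe sets, many of which carry little signal. At that brightness the size of a log2 difference is uncertain. Here the sulforaphane arrays were the ones that differed from each other, by 0.25, and leaving out either gave -0.66 or -0.91. Without DMSO replicate 1 the difference was -0.76. It passed the threshold only with centring on the median of the genes tested (adjusted p = 0.0381 by limma), an alternative chosen after seeing the data. Il12a (Entrez 16159) lies on chromosome 3 from 68690644 to 68698550.

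The chains of IL-27 did not pass the threshold. Il27, the p28 chain, measured 4.19 and 4.30 in sulforaphane cells, against 4.82 and 4.39 in DMSO cells. The groups did not overlap, but only 0.096 lay between sulforaphane replicate 2 and DMSO replicate 2, less than the 0.43 between the DMSO arrays. The log2 difference of -0.37 ± 0.16 (SE, n = 2 per group) had a 95% interval from -0.77 to 0.037 and an adjusted p of 0.429 by limma. DMSO replicate 1 carried much of it. The difference was -0.15 without that array and -0.58 without DMSO replicate 2. In the sulforaphane arrays 62.5% and 63.5% of all probe sets were dimmer than Il27, against 67.9% and 64.0% in the DMSO arrays. Il27 was thus dim too, and the size of its log2 difference is uncertain. Il27 (Entrez 246779) lies on chromosome 7 from 126589009 to 126595035.

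Ebi3, the partner of p28, measured 9.63 in both sulforaphane arrays, against 9.59 and 9.86 in the DMSO arrays. The sulforaphane values lay between the DMSO values. The log2 difference was -0.094 ± 0.13 (SE, n = 2 per group, 95% interval -0.41 to 0.23, adjusted p = 0.834 by limma), and that interval leaves room for a level 1.33-fold lower. It was -0.23 without DMSO replicate 1 and 0.044 without DMSO replicate 2. The second Ebi3 probe set, which the choice of the brightest left out, was dim, at 3.68 and 3.95 in sulforaphane and 3.91 and 3.995 in DMSO arrays, and differed by -0.14 (adjusted p = 0.738 by limma with every probe set tested). Ebi3 (Entrez 50498) lies on chromosome 17 from 55952623 to 55957022.

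**Figure D1:**
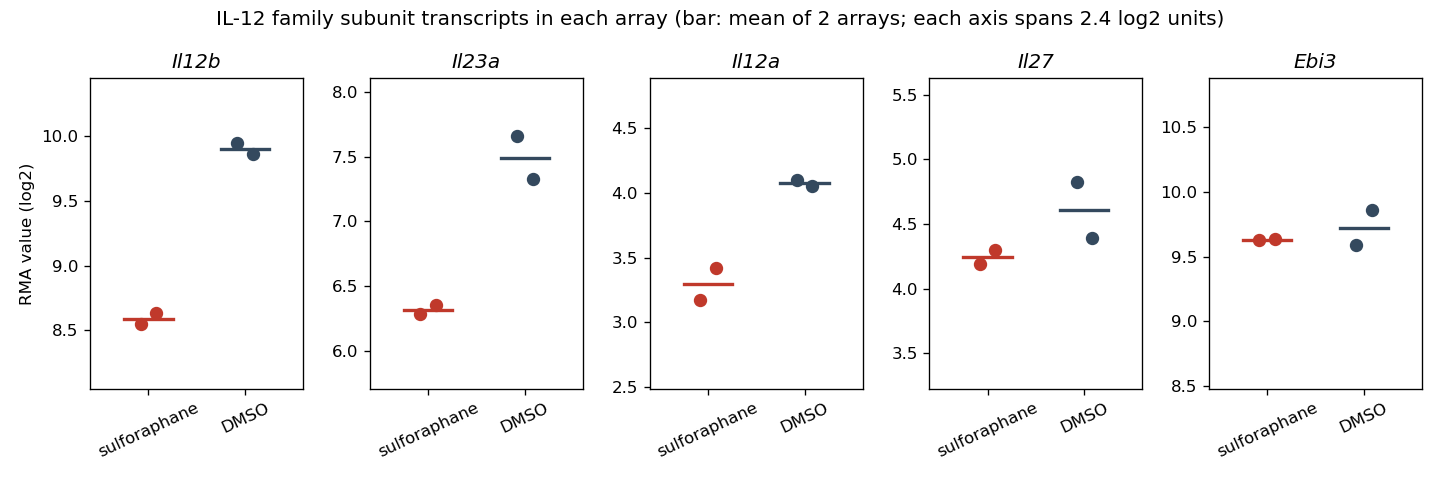
RMA value (log2 scale) of each subunit gene in the 2 sulforaphane and 2 DMSO arrays, with a point for each array and a bar for the mean. Both sulforaphane points lie below both DMSO points for Il12b, Il23a, Il12a and, by 0.096, Il27, while for Ebi3 they lie between the DMSO points.

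Of the 5 genes, 1 was called lower and 0 higher, and 4 had both sulforaphane arrays below both DMSO arrays, which holds for 19.5% of all genes tested. A difference of at least 1.5-fold without overlap was seen in the same direction for 3 of the 5 and for 1.49% of all genes. The median difference was -0.78, against 0.018 for all genes tested. The 5 genes were chosen with earlier results of these data known, so these contrasts are no independent check. With 2 arrays per group, the smallest two-sided p that exact permutation of the arrays allows is 0.333.

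**Figure D2:**
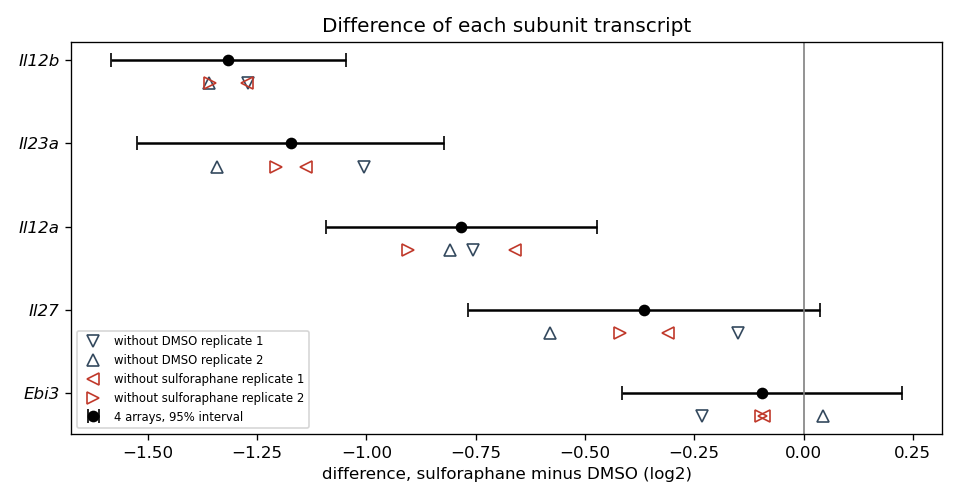
Log2 difference, sulforaphane minus DMSO, of each subunit gene (black point) with its 95% interval by limma (bar), and below it the difference with each array left out (open triangles). The intervals of Il12b, Il23a and Il12a lie below 0, those of Il27 and Ebi3 include 0, and the triangles spread most for Il27, from -0.58 to -0.15.

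Because each cytokine needs both of its chains, the partners were compared within each array, with each subunit set relative to its own mean in DMSO cells so that no probe set's brightness was set against another's. For IL-23, Il12b and Il23a differed by nearly the same amount. Il12b minus Il23a was -0.15 and -0.13 in sulforaphane arrays and -0.12 and 0.12 in DMSO arrays. The sulforaphane values lay just below DMSO replicate 1, and the mean shift of -0.14 was smaller than the distance between the DMSO arrays (exact permutation p = 0.333, two-sided, n = 2 per group). It was -0.27 without DMSO replicate 1 and -0.019 without DMSO replicate 2.

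For IL-12 the partners differed unequally in these arrays. Il12b minus Il12a was -0.45 and -0.61 in sulforaphane arrays, against 0.018 and -0.018 in DMSO arrays. The groups were well apart, and the mean shift of -0.53 ran between -0.61 and -0.45 with an array left out (exact permutation p = 0.333, two-sided, n = 2 per group, the smallest possible). The difference of p40 was thus the larger on the log2 scale. The Il12a probe set was the dim one of the pair, and the part of its dimness in this was not tested.

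For IL-27, Il27 minus Ebi3 was -0.32 and -0.22 in sulforaphane arrays and 0.35 and -0.35 in DMSO arrays. The sulforaphane values fell inside the DMSO range (mean shift -0.27, exact permutation p = 1, two-sided, n = 2 per group), and the sign turned to 0.081 without DMSO replicate 1. For the IL-35 pair, Il12a minus Ebi3 was -0.81 and -0.57 in sulforaphane arrays and 0.16 and -0.16 in DMSO arrays. These groups did not overlap (mean shift -0.69, exact permutation p = 0.333, two-sided, n = 2 per group), and the shift was -0.53 without DMSO replicate 1. Il27 and Il12a were the dim probe sets of these pairs and that of Ebi3 was bright. The size of either shift is therefore uncertain, and the part of dimness in it was not tested.

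**Figure D3:**
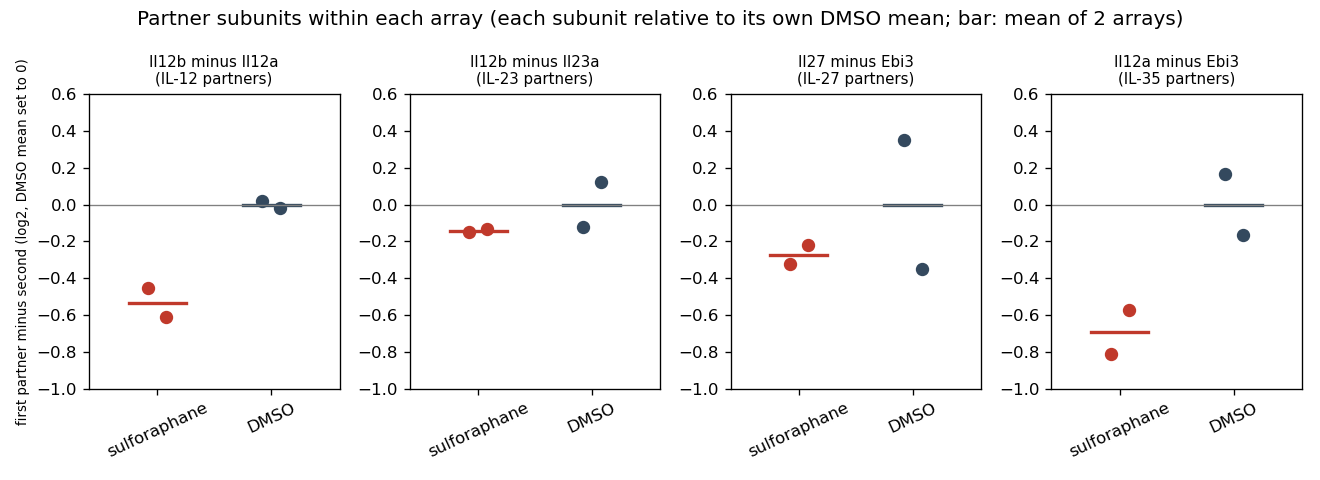
Difference between partner subunits in each array (log2), each subunit relative to its own DMSO mean, with a point for each array and a bar for the mean. The sulforaphane points lie apart from the DMSO points for the IL-12 and IL-35 partners, next to DMSO replicate 1 for IL-23 and inside the DMSO range for IL-27.

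The genes whose pattern over the 4 arrays was most like that of each chain were found by the smallest root mean square difference between values centred on each gene's own mean. For Il12b these were Dusp2, a phosphatase of MAP kinases (0.080 log2 units), Gpr18, a G protein-coupled receptor (0.11), Il23a itself (0.11), the transcriptional repressor Gfi1 (0.11) and the immediate early factor Egr3 (0.12). Dusp2 measured 5.25 and 5.28 in sulforaphane arrays and 6.44 and 6.43 in DMSO arrays, and it fell by 1.17 (adjusted p = 0.0326 by limma, a call lost, like every other, with any array left out). For Il23a the nearest were Il12b (0.11), Gfi1 (0.11) and the ephrin receptor Epha4 (0.11), so the chains of IL-23 were each among the 5 or 3 genes nearest to the other. For Il12a the nearest was Ikbke, which encodes the kinase IKK epsilon (0.022), at 9.17 and 9.38 in sulforaphane and 10.09 and 9.99 in DMSO arrays. BC051665 (0.025) and 1110002J07Rik (0.049) followed. With only 4 arrays in 2 groups, likeness here means little more than a like size of difference and a like spread.

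**Figure D4:**
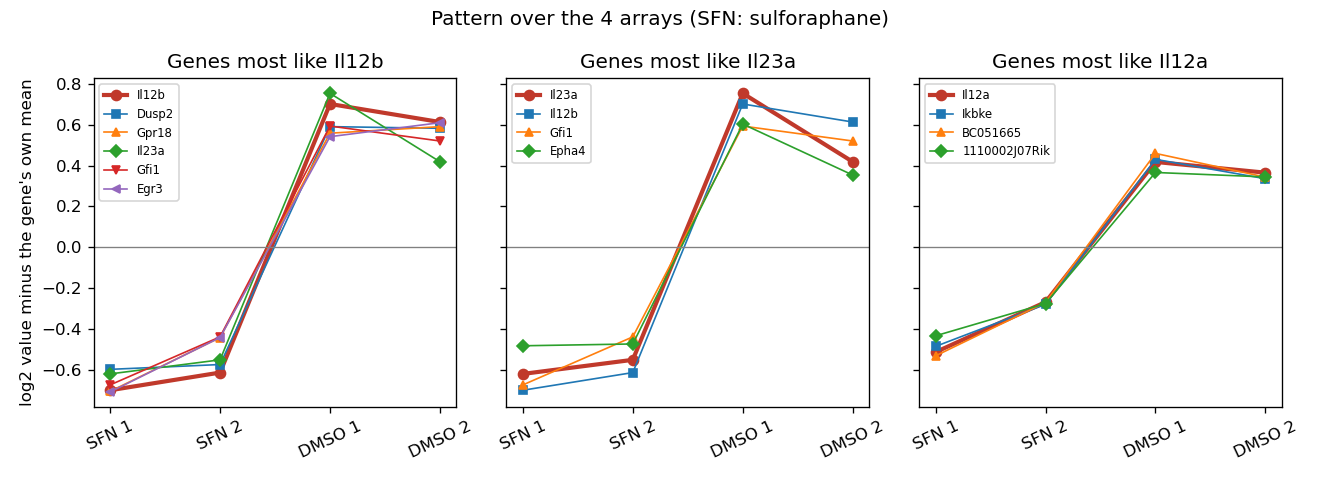
Log2 value minus the gene's own mean in each of the 4 arrays for Il12b, Il23a and Il12a (thick red) and the genes nearest to each (thin lines, which only join the values of 1 gene). Il12b and Il23a appear in each other's panel, and the Il12a panel has the smaller range.

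The receptors of these cytokines had small differences in the same cells. The lists of other pathway genes were chosen with earlier results of these data known. Of 5 receptor chains for these cytokines 0 were called by limma in either direction and 0 had an unadjusted p under 0.05, which 13.0% of all genes had, with a median difference of 0.086. Il12rb1, the chain that binds p40, differed by 0.094 ± 0.15 (SE), the signalling chain Il12rb2 by -0.051 ± 0.11 and Il23r by -0.060 ± 0.17. Il12rb1 (3.61 to 3.96 over the 4 arrays) and Il23r (3.57 to 3.96) were as dim as Il12a, so the size of their differences is equally uncertain, and 3 of the 5 receptor genes passed the filter at the 60th percentile. Of the IL-27 receptor, Il27ra differed by 0.086 ± 0.15 and Il6st, the shared chain gp130, by 0.20 ± 0.11. Of 5 measured kinases and STATs that carry the receptor signal, 0 were called and 0 had an unadjusted p under 0.05. Tyk2, a kinase bound to the IL-12 receptor, differed by -0.063 ± 0.12 and Stat4, the main STAT of IL-12 in T cells, by -0.14 ± 0.15.

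Among 19 measured transcription factors and cofactors that act on the subunit genes or in dendritic cell activation, 0 were called by limma over all genes. An unadjusted p under 0.05 was found in 7 as lower and 1 as higher, against 860 and 1039 of all 14652 genes tested. The median difference was -0.16. Groups did not overlap in 11 as lower and 3 as higher, against 19.5% and 24.0% of all genes. Bcl3, a nuclear relative of the IkB proteins, had the smallest p, with 8.34 and 8.39 in sulforaphane arrays and 9.32 and 9.31 in DMSO arrays, a difference of -0.95 ± 0.11 (SE, adjusted p = 0.0510 by limma). Irf4, an interferon regulatory factor of dendritic cells, differed by -0.87 ± 0.11 (adjusted p = 0.0565), and Batf3, a factor of the dendritic cell lineage that is a major source of IL-12, by -0.64 ± 0.13 (adjusted p = 0.140). Irf1, which acts on the Il12a promoter, had the opposite sign, at 0.47 ± 0.11 (adjusted p = 0.165). Rel encodes the NF-kB subunit c-Rel, on which Il12b and Il23a transcription depends in some mouse cells. It measured 10.26 and 10.11 in sulforaphane arrays and 10.42 and 10.55 in DMSO arrays. That is a difference of -0.30 ± 0.12 (adjusted p = 0.379), and Irf8, an activator of Il12b, differed by -0.21 ± 0.11 (adjusted p = 0.511). Bcl3 and Irf4 passed the threshold with a second quantile normalization, the filter at the 60th percentile, the intensity trend and centring on the genes tested. Bcl3 also passed with the mean of probe sets, and Nfkb2 (-0.46 ± 0.11) with the intensity trend alone. The alternatives named for Irf4 called 106, 138, 249 and 143 of all genes, in that order, against 19 in the main test.

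Of 7 tested related cytokines and receptors, most but not all of the IL-6 family, 0 were called by limma. Of them 0 had an unadjusted p under 0.05, and the median was -0.14. Il6 measured 8.81 and 8.66 in sulforaphane arrays and 9.002 and 9.006 in DMSO arrays, a difference of -0.27 ± 0.11 (SE, adjusted p = 0.393), while Clcf1 differed by -0.30 ± 0.14, Lif by -0.28 ± 0.16 and Ctf1 by 0.16 ± 0.11. Of 16 tested signals by which dendritic cells steer T cells, 0 were called, with a median of -0.12. An unadjusted p under 0.05 was found in 4 as lower and 0 as higher, against 860 and 1039 of all 14652 genes. Those with the smallest p were the costimulatory ligands Cd80 (-0.87 ± 0.11, adjusted p = 0.0581) and Icosl (-0.78 ± 0.11, adjusted p = 0.0592), the receptor Cd40 (-0.75 ± 0.10, adjusted p = 0.0600) and Il1b, which supports IL-17 producing T cells (-0.38 ± 0.11, adjusted p = 0.253). Cd80, Icosl and Cd40 passed the threshold under the alternatives named for Irf4. Tnf, a cytokine made early after LPS, measured 12.00 and 12.05 in sulforaphane and 12.06 and 12.01 in DMSO arrays and differed by -0.0075 ± 0.11, with groups that overlapped. Il10, a brake on IL-12 production, lay below the filter at 2.73 and 2.59 in sulforaphane and 2.57 and 2.404 in DMSO arrays and was not tested.

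Chaperones of the secretory pathway, in which the dimers are assembled, and the LPS sensing genes showed 0 calls by limma in 9 and 10 tested genes. Chaperones had 0 genes with an unadjusted p under 0.05 and a median of -0.031. Among them Erp44, which retains unassembled secretory chains, differed by -0.15 ± 0.11 (SE), the oxidase Ero1a by -0.14 ± 0.11, Calr by 0.14 ± 0.12 and P4hb by -0.097 ± 0.11. LPS sensing genes had a median of -0.13. Their unadjusted p was under 0.05 in 2 as lower and 1 as higher, against 860 and 1039 of all 14652 genes. The adaptor Ticam2 differed by -0.46 ± 0.11 and Myd88 by -0.32 ± 0.12. Ly96, the MD-2 partner of TLR4, differed by 0.50 ± 0.13 and Tirap by -0.24 ± 0.11.

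NRF2 targets were read beside the treatment. This list too was chosen with earlier results of these data known, so it is no independent check. Of 9 tested, 1 was called higher and 0 lower over all genes, and in all 9 both sulforaphane arrays lay above both DMSO arrays, as in 24.0% of all genes. Osgin1, an oxidative stress-induced growth inhibitor, rose (9.14 and 9.17 in sulforaphane arrays, 7.46 and 7.71 in DMSO arrays, adjusted p = 0.0322 by limma, not called with any array left out). Not called were Cbr3, a carbonyl reductase (difference 1.87 ± 0.25 SE, adjusted p = 0.0592), Hmox1, which breaks down heme (1.03 ± 0.11, adjusted p = 0.0510), and Nqo1, which reduces quinones (0.90 ± 0.12, adjusted p = 0.0597). The count called higher was 8 with the intensity trend, 5 with the filter at the 60th percentile, 4 with a second quantile normalization and 4 with centring on the genes tested, and Hmox1, Cbr3 and Nqo1 were among the genes called in each of these. With the mean of probe sets it was 2, Osgin1 and Hmox1. The median of the 9, 0.85, has the opposite sign to that of the subunit genes.

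**Figure D5:**
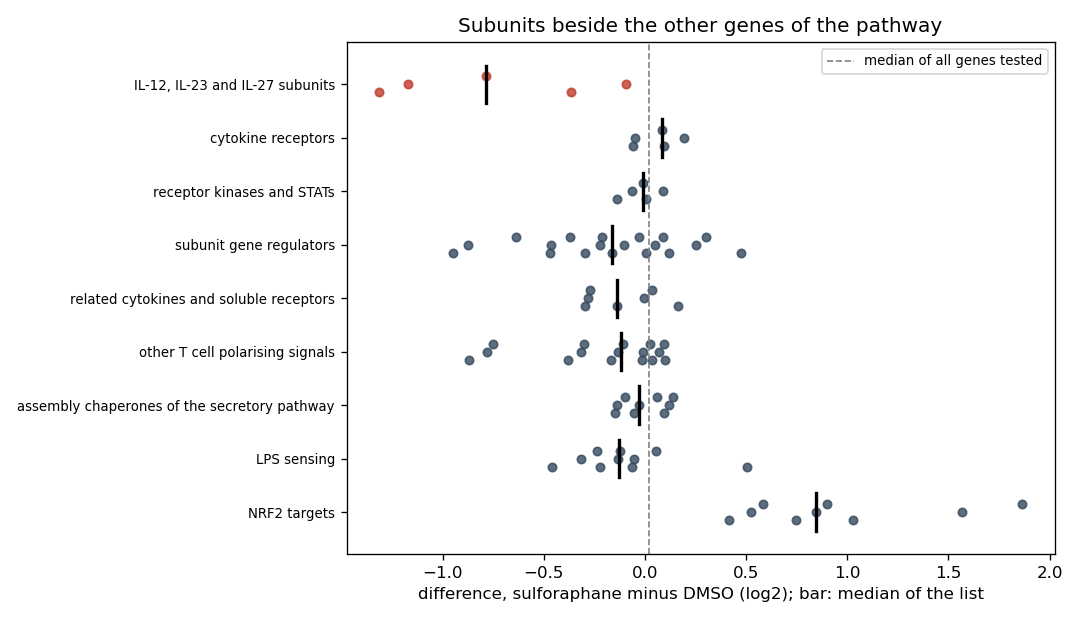
Log2 difference, sulforaphane minus DMSO, of every tested gene in each list (points), with the list's median (bar) and the median of all genes tested (dashed line, 0.018). The subunit genes (red, top) reach from -1.32 to -0.094, the receptors stay between -0.060 and 0.20, and the NRF2 targets lie between 0.42 and 1.87.

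Markers of the cell types in the culture were read beside these results. Among dendritic cell markers Kmo differed by -0.45, Flt3 by -0.42, Cd83 by -0.37 and Zbtb46 by -0.34, while Itgax, the CD11c chain, differed by 0.066 and H2-Ab1 of MHC class II by 0.26. The list had 4 members below 0 and 5 above, 0 called by limma and 4 with an unadjusted p under 0.05, all lower, with a median of 0.066. Of macrophage markers 6 of 7 lay below 0 (median -0.10), of mast cell markers 5 of 6 (median -0.060) and of neutrophil markers 2 of 8 (median 0.044). In each 0 were called, and 2, 2 and 1 had an unadjusted p under 0.05, all lower. Over all 14652 genes tested, 860 had an unadjusted p under 0.05 as lower and 1039 as higher. Hdc, the histamine-forming enzyme, differed by -0.61 and Gata2 by -0.57 among mast cell markers, and the chemokine receptor Ccr2 by -0.51 among macrophage and monocyte markers, each further from 0 than Il27 or Ebi3. Of B cell markers 2 of 2 tested lay below 0, of T and NK cell markers 2 of 3 and of plasmacytoid dendritic cell markers 2 of 4, with medians of -0.34, -0.13 and -0.067. The part of such markers in the lower subunit levels was not tested.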

How the data were processed

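Gene expression was measured on 4 Affymetrix arrays, 2 of sulforaphane-treated and 2 of DMSO-treated cells, grouped by their titles. The authors deposited log2 values computed by RMA under R 2.15.1, per the submitters' processing notes. That the log base is 2 was inferred from RMA and from the range of the values. Which filters were used is not given in the sources used here. RMA normalizes quantiles between arrays, so a shift shared by most genes would be removed. Of 41345 probe sets, 23521 had exactly 1 gene symbol in the platform annotation. Each gene was represented by its brightest probe set, and a gene was tested if its mean exceeded the 40th percentile of the probe sets (2.91). The test was done with limma 3.58.1 in R 4.3.3, without a replicate block, with Benjamini-Hochberg adjustment over all genes tested, a threshold of 0.05 and 2 residual and 4.02 prior degrees of freedom. A check on simulated data with independent normal noise compared the mean estimate with planted differences, and its call rates are not given here. Partner differences were compared by exact permutation. Members, lists and tests were chosen with earlier results of these data known. The text names the 5 members, up to 4 genes with the smallest p and any called in each list, Il6, Tnf, Il10, Il1b, Rel, Irf8, Stat4 and Tyk2, and the 5, 3 and 3 genes most like Il12b, Il23a and Il12a. Markers are named for the check of the cells, and Nfkb2 because an alternative called it. Promoters come from RefSeq (GRCm38.p6) and were scanned with Python 3.11.15. Only 2 arrays per group limit the precision. Other filters, scalings, choices of probe set and variance estimates, a replicate block and each array left out were tried.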

Additional observations from a re-analysis of the deposited data

How the results depend on the processing

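Of 69 differences of the 5 subunit genes under the alternatives 68 lay below 0. The exception was Ebi3 without DMSO replicate 2 (0.044). Of the partner comparisons, Il27 minus Ebi3 ran from -0.62 without DMSO replicate 2 to 0.081 without DMSO replicate 1. With an array left out, Il12b ran from -1.36 to -1.27 and passed with none (adjusted p 0.0816 to 0.213 by limma), Il23a ran from -1.34 to -1.01, Il12a from -0.91 to -0.66, Il27 from -0.58 to -0.15 and Ebi3 from -0.23 to 0.044. Il23a passed with the filter at the 60th percentile (-1.17), which tests fewer genes, a second quantile normalization (-1.23), the intensity trend (-1.17) and centring on the genes tested (-1.24). Il12a passed with the last alone (-0.85) and lay below the filter at the 60th percentile. The replicate block left Il12b at -1.32 with an adjusted p of 0.0510 and called 8 genes. The same-numbered arrays' deviations correlated at -0.081 across genes. Each group gives only a single difference between replicates, so this value cannot tell whether same-numbered arrays shared a mouse or culture. The labels state no pairing. Il12b was the only subunit gene called without the block, so with the block no subunit gene was called. Of all genes, 19 were called. This count was 138 with the filter at the 60th percentile (81 lower, 57 higher), 106 with a second quantile normalization (72 lower, 34 higher), 143 with centring on the genes tested (102 lower, 41 higher), 34 with the mean of probe sets (23 lower, 11 higher) and 249 with the intensity trend (153 lower, 96 higher). It was 0 with each array left out, where 1036 to 2850 genes had an unadjusted p under 0.05. Of 112 list medians under alternatives 99 moved by no more than the replicate SD and 7 changed sign, among receptors, receptor kinases and STATs, and chaperones. The cause of these changes was not tested. A fit with an array left out has 1 residual degree of freedom, and the part of this was not tested either. The alternative of centring on the genes tested was chosen after seeing the data.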
